A study of Mus musculus with 6 samples.

Results

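The genes described here are 5 acyl-CoA thioesterases (Acot1, Acot2, Acot3, Acot4 and Acot12) and 3 further genes known as hepatic targets or partners of the nuclear receptor PPARα (Vnn1, Pdk4 and Creb3l3). They were taken as all probe sets that the platform annotation assigns to exactly 1 of these 8 symbols, which gave 13 of the 45037 probe sets measured. Liver RNA came from C57BL/6 mice that had all received an intravenous AAV8 vector and had then been fed CDAHFD, a high-fat diet that lacks choline and has a defined amino acid content, for 4 weeks as a model of nonalcoholic fatty liver disease. The vector expressed luciferase in the control group and Nfkbiz, the gene of the nuclear IκB protein IκBζ, in the other, with 3 arrays in each. The sources used here give neither the promoter of the vector, nor the age and sex of the animals, nor feeding state and time of day at sampling, and no group on a normal diet or without a vector was analysed here. The genes were chosen by their roles and by their log2 differences between these same Nfkbiz and luciferase arrays, so those differences are given as a description, with no p-value.

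Acyl-CoA thioesterases split acyl-CoA into a free fatty acid and coenzyme A, and so set how much activated fatty acid is left for oxidation or esterification in each compartment of the cell. PPARα binds fatty acids and, as a partner of RXR, switches on genes of fatty acid oxidation in the fasting liver at elements built from a direct repeat of a hexamer. In rodents the cytosolic thioesterase gene Acot1, its mitochondrial relative Acot2, the peroxisomal Acot3 and Acot4, the pantetheinase gene Vnn1 and the pyruvate dehydrogenase kinase gene Pdk4 are among its known targets, and Creb3l3 encodes CREBH, a membrane-bound transcription factor of the liver that works together with PPARα.

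Acot1 to Acot4 lie side by side on mouse chromosome 12 (GRCm38.p6). In RefSeq, Acot2 spans chr12:83987861-83993877, Acot1 chr12:84009502-84017670, Acot4 chr12:84037254-84044723 and Acot3 chr12:84052144-84060400, followed by their relatives Acot5 at chr12:84069077-84076024 and Acot6 at chr12:84100654-84109783. Acot12 lies apart at chr13:91741326-91786148, Pdk4 at chr6:5483351-5496278, and Vnn1 and Creb3l3 on chromosome 10, at chr10:23894688-23905344 and chr10:81084329-81098872. The 250 bases before an annotated transcription start are shown for the 4 neighbours, and for Pdk4 because it was the 1 gene outside the cluster whose groups did not overlap. All are written 5′ to 3′ on the gene's strand, from RefSeq with the build GRCm38.p6. Capitals mark the hexamer AGGTCA or its reverse complement TGACCT, the half-site of nuclear receptors such as PPARα and RXR. The windows are chr12:83987611-83987860 (Acot2, plus strand), chr12:84009252-84009501 (Acot1, plus strand), chr12:84038129-84038378 (Acot4, plus strand, before a start inside the gene's span), chr12:84051894-84052143 (Acot3, plus strand) and chr6:5496279-5496528 (Pdk4, minus strand).
Acot2 promoter: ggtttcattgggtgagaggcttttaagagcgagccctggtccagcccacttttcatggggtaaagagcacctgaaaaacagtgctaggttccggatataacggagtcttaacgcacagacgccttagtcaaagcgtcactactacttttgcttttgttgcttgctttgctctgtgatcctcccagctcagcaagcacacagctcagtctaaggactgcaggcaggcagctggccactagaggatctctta
Acot1 promoter: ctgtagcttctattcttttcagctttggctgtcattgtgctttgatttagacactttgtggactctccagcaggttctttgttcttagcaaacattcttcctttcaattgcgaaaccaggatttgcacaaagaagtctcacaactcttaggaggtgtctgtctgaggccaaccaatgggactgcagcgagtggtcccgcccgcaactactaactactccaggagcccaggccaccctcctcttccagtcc
Acot4 promoter: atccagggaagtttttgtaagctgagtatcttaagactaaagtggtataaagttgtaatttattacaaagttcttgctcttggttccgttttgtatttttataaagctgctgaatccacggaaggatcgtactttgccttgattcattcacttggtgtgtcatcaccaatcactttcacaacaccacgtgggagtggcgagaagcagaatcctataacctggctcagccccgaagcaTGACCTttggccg
Acot3 promoter: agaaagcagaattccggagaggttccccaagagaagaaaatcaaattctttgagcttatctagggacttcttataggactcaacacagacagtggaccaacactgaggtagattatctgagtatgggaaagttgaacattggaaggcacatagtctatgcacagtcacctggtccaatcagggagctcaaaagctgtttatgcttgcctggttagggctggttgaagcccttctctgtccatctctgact
Pdk4 promoter: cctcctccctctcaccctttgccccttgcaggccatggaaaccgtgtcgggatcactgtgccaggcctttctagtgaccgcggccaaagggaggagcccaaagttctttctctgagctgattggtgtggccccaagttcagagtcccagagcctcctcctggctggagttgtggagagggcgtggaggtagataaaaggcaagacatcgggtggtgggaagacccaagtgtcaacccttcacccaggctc
The hexamer was found on either strand in 3 of the 7 genes that the promoter table held, once each. It began 13 bases before the start in Acot4, 110 bases before it in Acot12 and 202 bases before it in 1 of the windows of Creb3l3. Like that of Acot4, these starts of Acot12 and Creb3l3 lie inside the gene's span. Of all 32851 windows of this length 14.0% held it. The full repeat AGGTCANAGGTCA was in none of the 9 windows of these genes and in 0.0335% of all windows, and the looser form AGGNCANAGGNCA, which includes it, in none of the 9 and in 0.338% of all. These letters were looked for in 250 bases only, and a match is no evidence of binding. Vnn1 had no entry.

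Values are MAS5 signal intensities, scaled by the authors so that all arrays share 1 trimmed mean, and they are comparable between arrays for a probe set but not between probe sets. Differences are means of log2 intensity, Nfkbiz minus luciferase, with the moderated standard error (SE) of limma, and group values are means with the standard deviation (SD) over 3 arrays. Of the 13 probe sets, 12 were above the intensity filter, which left out the dimmest 40% of probe sets and stood at an intensity of 47.4. The remaining one, Acot12 probe set 1433064_at, read between 2.62 and 12.0 in the luciferase livers and between 9.84 and 39.7 in the Nfkbiz livers and was not tested. In a principal component analysis of the 13312 genes tested, the third luciferase array had a score of -45.1 on the second component, and the remaining arrays had scores from 3.11 to 21.1. Nfkbiz itself differed 15.8-fold on 1 of its 3 probe sets (1448728_a_at, log2 difference 3.98 ± 0.27 SE, limma adjusted p = 0.0009), from 210.2 ± 26.7 to 3501 ± 1307 (SD, n = 3 per group). Its other probe sets did not pass and differed in direction, 1417483_at at 0.30 ± 0.19 and 1457404_at at -0.89 ± 0.54 (limma adjusted p = 0.603 and 0.594), both with overlapping groups. The summed intensity of the hepatocyte markers was high on every array, between 262590 and 305188 in the luciferase and between 253323 and 291463 in the Nfkbiz group. Among them Ass1 was dim, at 584, 608 and 60.5 against 115, 178 and 135. The 5 adipocyte markers on the array were all under the filter.

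Acot1 and Acot3 had the largest differences, both more than 2-fold higher in the Nfkbiz livers, and Pdk4 followed. The other thioesterase probe sets of the cluster had smaller positive differences with overlapping groups, and Acot12, Vnn1 and Creb3l3 differed little. None of the 12 probe sets passed a limma adjusted p of 0.05, where 0.0703% of all 27022 probe sets did. At an unadjusted p below 0.05 there were 3 of the 12, against 10.6% of all. The groups did not overlap for 3 of the 12 (Acot1, Acot3 and Pdk4), all with the Nfkbiz arrays above, where 7.03% of all probe sets were separated in that direction. All 12 had a positive difference, as did 47.0% of all, although 4 of them (1 probe set each of Acot4, Acot12, Vnn1 and Creb3l3) changed sign under other processing or with an array left out, and their median was 0.27 against -0.02 for all probe sets. The rule used this same contrast, so nothing is read from these counts.

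Acot1, the cytosolic thioesterase that acts on long-chain acyl-CoA, was read by probe set 1449065_at. Its intensity was 521, 848 and 369 in the luciferase livers and 2075, 919 and 1002 in the Nfkbiz livers. The first Nfkbiz array was far above the rest, and the other Nfkbiz arrays were only slightly above the second luciferase array. The group means were 579.6 ± 245.0 and 1332 ± 645 (SD, n = 3), and the log2 difference was 1.18 ± 0.35 (SE, 95% interval 0.41 to 1.96), or 2.27-fold. Leaving out the third luciferase array gave 0.90, and leaving out the first Nfkbiz array gave 0.81.

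Acot3, a peroxisomal thioesterase, was read by 1422925_s_at, a suffix that marks probes matching more than 1 transcript, so that signal from near-identical relatives cannot be told apart. It read 720, 1029 and 383 in the luciferase livers against 1923, 1302 and 1160 in the Nfkbiz livers. The lowest Nfkbiz array was above the highest luciferase array, and as for Acot1 the extremes were the third luciferase and the first Nfkbiz array. The difference was 1.12 ± 0.32 (SE, 95% interval 0.40 to 1.84), or 2.17-fold, and 0.73 without the third luciferase array.

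Acot2, the mitochondrial member, was read by 2 probe sets with overlapping groups. Probe set 1422996_at read 398, 373 and 200 in the luciferase and 571, 307 and 546 in the Nfkbiz livers, with a difference of 0.56 ± 0.31 that was 0.25 without the third luciferase array. Probe set 1439478_at read 1110, 1071 and 1200 against 1692, 1018 and 1567, a difference of 0.31 ± 0.19, and here the third luciferase array was not low. On both, the second Nfkbiz array lay below luciferase arrays while the other Nfkbiz arrays lay above all of them. A further probe set, 1422997_s_at, is annotated to both Acot2 and Acot1 and so is no member by the rule. It read 839, 1084 and 446 against 2226, 941 and 1069, with the group ranges overlapping.

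Acot4, a peroxisomal thioesterase known for its activity on succinyl-CoA and other dicarboxylic acyl-CoAs, had overlapping groups on both probe sets. Probe set 1422076_at read 870, 1300.4 and 489 against 1433, 1303 and 934, a difference of 0.55 ± 0.31 that was 0.18 without the third luciferase array. Probe set 1422077_at read 713, 788 and 454 against 826, 638 and 645, a difference of 0.14 ± 0.22 that turned to -0.10 without that array. The neighbours in the cluster that were not chosen had low readings. Acot6 had differences of 0.82 ± 0.55 (1428803_at) and 0.11 ± 0.39 (1460388_at), with limma adjusted p-values of 0.631 and 0.942 over the probe sets, and Acot5 read between 2.41 and 7.11 and was not tested.

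Pdk4, the kinase that inactivates pyruvate dehydrogenase and so spares glucose when fat is burned, had separated groups. Probe set 1417273_at read 864, 912 and 584 in the luciferase and 1413, 954 and 1559 in the Nfkbiz livers, and the second Nfkbiz array was only just above the luciferase range. The group means were 786.7 ± 177.1 and 1309 ± 316 (SD, n = 3). The difference was 0.73 ± 0.23 (SE, 95% interval 0.23 to 1.24), or 1.66-fold, and 0.53 without the third luciferase array.

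Acot12, a cytosolic thioesterase that acts on acetyl-CoA and belongs to a different structural family, had overlapping groups. Probe set 1449457_at read 3014, 3743 and 2186 against 3582, 3458 and 3211 (0.23 ± 0.18), and 1419395_at read 1420, 1843 and 2055 against 1822, 1730.1 and 1800.05 (0.03 ± 0.16). The Nfkbiz arrays were close together on both, at coefficients of variation of 5.52% and 2.70%, and the luciferase arrays spread more, at 26.1% and 18.2%. The third luciferase array was the lowest of all on the first of these probe sets and the highest on the second.

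Vnn1, which frees cysteamine from pantetheine, read 6468, 5664 and 6844 in the luciferase and 7403, 6011 and 7243 in the Nfkbiz livers with 1418486_at, a difference of 0.12 ± 0.13 (95% interval -0.18 to 0.42). Its second probe set, 1447845_s_at, gave 0.05 ± 0.18. Creb3l3 read 7462, 8067 and 9654 against 10273, 8007 and 7951 with 1424688_at, a difference of 0.06 ± 0.15 (95% interval -0.27 to 0.39). For both genes the groups overlapped widely, and the intervals leave room for differences of up to 1.34-fold for Vnn1 on 1418486_at and 1.31-fold for Creb3l3.

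**Figure D1:**
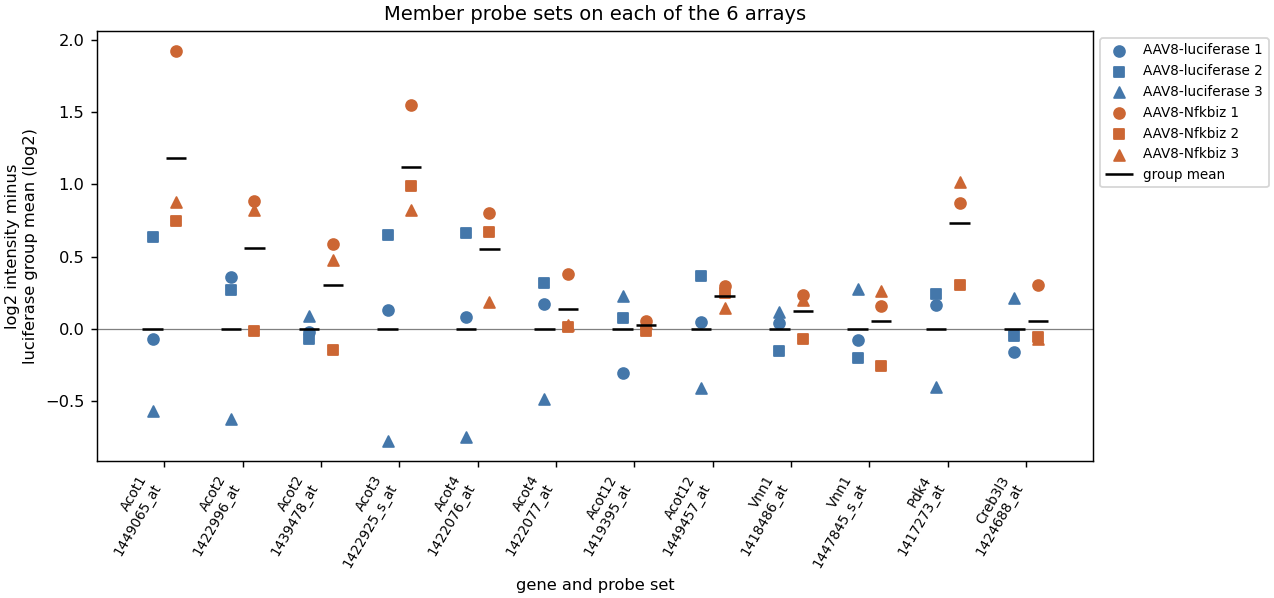
Log2 intensity minus the luciferase group mean (vertical axis, log2) for the 12 member probe sets above the filter, with 1 symbol per array (blue AAV8-luciferase, orange AAV8-Nfkbiz, shapes for replicates 1 to 3) and black bars for the group means of 3 arrays. All orange symbols lie above all blue ones for Acot1, Acot3 and Pdk4, and the third luciferase array (blue triangle) is the lowest on 7 of the 12 probe sets.

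The third luciferase array was the lowest of all 6 on 7 of the 12 probe sets, namely those of Acot1, Acot3, Acot4 and Pdk4, 1422996_at of Acot2 and 1449457_at of Acot12. It was the lowest on 23.4% of all probe sets tested. The first Nfkbiz array was the highest on 8 of the 12, and the second was the lowest of the Nfkbiz arrays on 8. Without the third luciferase array the differences of Acot1, Acot3 and Pdk4 stayed positive at 0.90, 0.73 and 0.53, while that of Acot4 probe set 1422077_at changed sign.

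**Figure D2:**
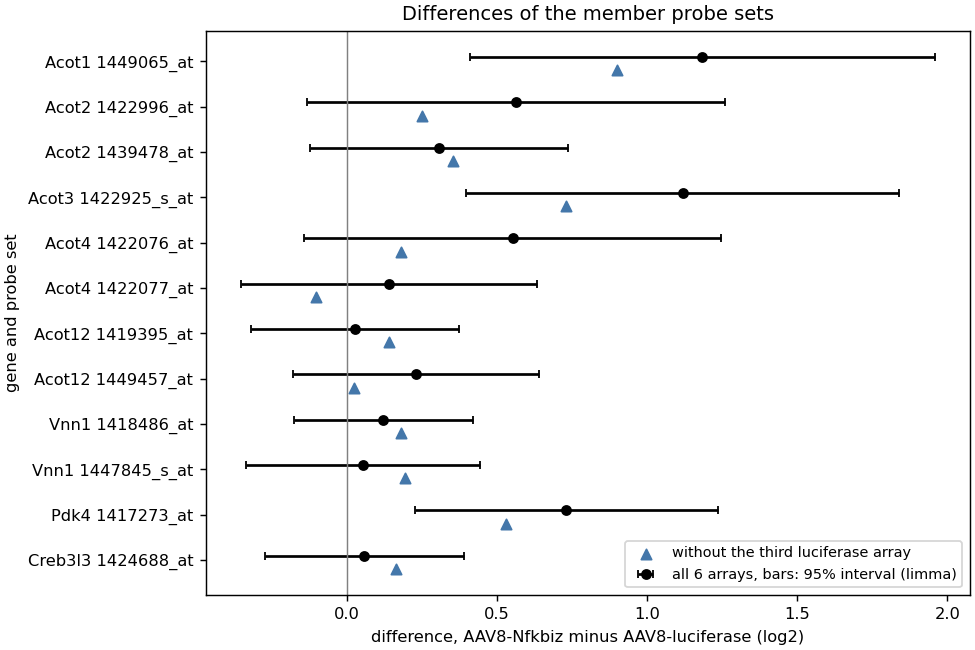
Difference between the groups (horizontal axis, log2, Nfkbiz minus luciferase) for the 12 probe sets with all 6 arrays (black points, bars give limma's 95% interval) and without the third luciferase array (blue triangles). Acot1, Acot3 and Pdk4 have the largest differences, and without that array their values are 0.90, 0.73 and 0.53.

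Within the groups, Acot1, Acot3 and Acot4 went up and down together from array to array. With all 6 arrays, Acot2 probe set 1439478_at did not follow Acot3 or Acot4, while Acot2 probe set 1422996_at went with both. Each probe set's log2 values were set against its group means, and the deviations were correlated over the 6 arrays, which leaves 4 free values because the deviations sum to 0 in each group. The correlations describe these arrays only, with no test, and probe sets of near-identical genes can share signal. Among the 6 probe sets of Acot1 to Acot4, 14 of 15 pairs had a positive r, with a median of 0.70. Acot3 followed both Acot4 probe sets (r = 0.96 and 0.98) and Acot1 (0.91), and the Acot12 probe set 1449457_at followed Acot3 at 0.95. The other Acot12 probe set, 1419395_at, had an r of -0.35 with Acot3 and of -0.38 with 1449457_at. Without the third luciferase array these were 0.63 and 0.87. Acot2 probe set 1439478_at had an r of 0.01 with Acot3, of -0.26 and 0.10 with the Acot4 probe sets and of 0.36 with Acot1. Without the third luciferase array these were 0.32, -0.17, 0.59 and 0.57. The other Acot2 probe set, 1422996_at, had an r of 0.70 with Acot3 and of 0.52 and 0.81 with the Acot4 probe sets. Without that array these were 0.24, -0.24 and 0.52. Without the third luciferase array the median of the 15 pairs was 0.59, close to the 0.52 of pairs between these probe sets and those of the other 4 genes. Creb3l3 then had an r of 0.97 with Acot1 and 0.93 with Acot3, against 0.26 and -0.13 with all arrays. Values with an array left out rest on still fewer free values.

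Pdk4 went closest with Acot2 probe set 1422996_at (r = 0.97, and 0.95 without the third luciferase array). The other Acot2 probe set, 1439478_at, went with the Vnn1 probe sets instead (0.87 and 0.82). Vnn1 went opposite to Acot4, down to r = -0.75 for 1447845_s_at against 1422076_at. The 36 pairs of a cluster probe set with a probe set of the other 4 genes had a median of -0.02 with all arrays and 0.52 without the third luciferase array, so this median rests on that array. Without it, 1439478_at still went with the Vnn1 probe sets (0.90 and 0.94), but so did 1422996_at (0.91 and 0.96). Likewise 1439478_at then went with Pdk4 (0.93), and the Acot2 probe sets went with each other (0.997, against 0.52 with all arrays). The contrast between the Acot2 probe sets thus rests on that array too. Acot4 probe set 1422076_at still went opposite to the Vnn1 probe sets (-0.47 and -0.50), while 1422077_at turned from -0.28 and -0.48 to 0.34 and 0.26.

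**Figure D3:**
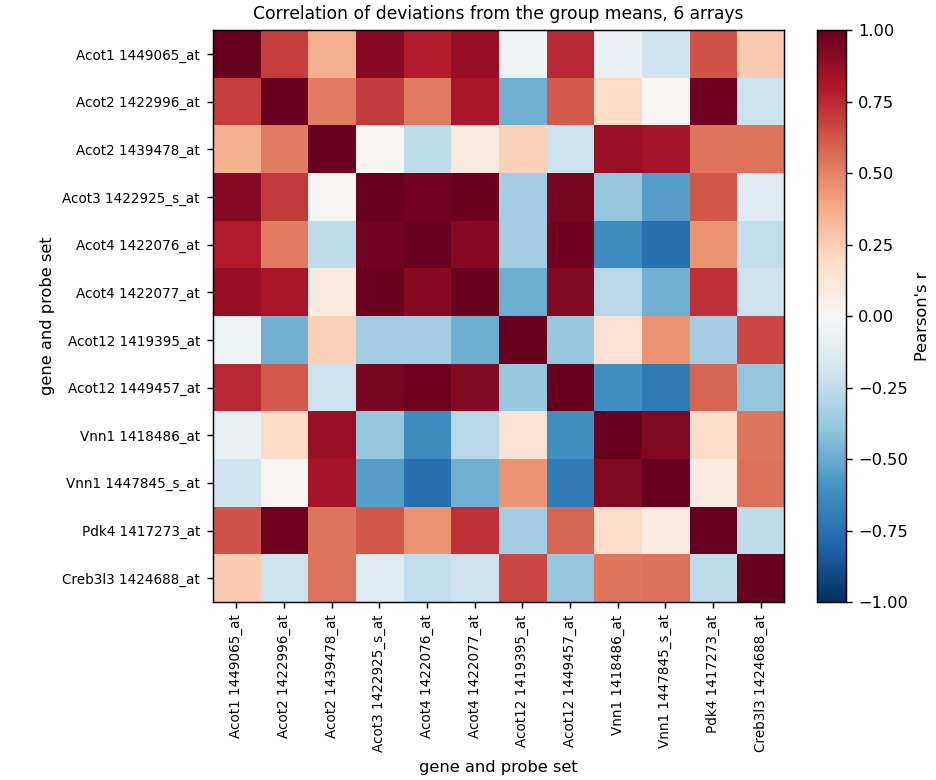
Pearson's r (colour, from -1 in blue to 1 in red) between the deviations of each pair of member probe sets from their group means over 6 arrays, with probe sets on both axes. Acot1, Acot3, Acot4 and the Acot12 probe set 1449457_at form a red block, whose pairs include Acot3 with 1422077_at of Acot4 at 0.98, and the Vnn1 probe sets are blue against Acot4.

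The genes whose pattern over the 6 arrays was most like the mean standardised profile of the 8 genes were Gsdmd (r = 0.992), Ofd1 (0.991), Olfr78 (0.986), Ccl6 (0.984) and Krtap28-13 (0.984). That profile was highest on the first Nfkbiz array (1.17), followed by the third (0.41), the second (-0.07) and the luciferase arrays at -0.50, -0.14 and -0.87. None of the 5 passed limma's test over all genes, with Ccl6 at 0.47 ± 0.18 and Olfr78 at 0.84 ± 0.34 having the smallest adjusted p-values, 0.341 and 0.363. An r above 0.9 was reached by 108 of the 13304 other genes (0.812%) and an r below -0.9 by 118 (0.887%).

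The other genes of these pathways were followed in 7 lists with 121 genes outside the 8, of which 106 were measured, each through its brightest probe set. None rose and 2 fell past a limma adjusted p of 0.05, Lpin1 and Ppargc1a, where 0.225% of all 13312 genes passed, 0.0676% higher and 0.158% lower. At an unadjusted p below 0.05 there were 18 of the 106, against 12.0% of all genes. Their median difference was 0.02, against -0.02 for all genes. The count of 2 was 1 without any single array, Lpin1 in each case.

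Most established PPARα targets outside the 8 genes had small positive differences. Of 29 measured, none passed a limma adjusted p of 0.05, where 0.225% of all genes did. An unadjusted p below 0.05 was found for 2, 1 in each direction, against 12.0% of all genes. A positive difference was found in 22 of 29, against 47.8% of all genes, with a median of 0.18, which was 0.09 without the third luciferase array. Cyp4a10 had no probe set named by a single symbol and was not analysed here.

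The smallest p among these targets belonged to Angptl4, a secreted inhibitor of lipoprotein lipase, whose difference was negative. It read 3342, 4336 and 5585 in the luciferase and 2916, 3095 and 2777 in the Nfkbiz livers (-0.56 ± 0.18, limma adjusted p = 0.251), so its groups did not overlap, in the direction opposite to Acot1 and Pdk4. Plin2, which coats lipid droplets, was also separated, at 14428, 15508 and 16466 against 23493, 17911 and 20361 (0.41 ± 0.13, limma adjusted p = 0.278). The fatty acid binding protein gene Fabp1 (0.18 ± 0.12) and the acyl-CoA dehydrogenase gene Acadl (0.26 ± 0.14) were separated upward too. The list thus had 3 of 29 genes separated upward and 1 downward, against 8.0% and 10.0% of all genes.

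Ehhadh, the bifunctional enzyme of peroxisomal oxidation, had a difference of 0.45 ± 0.21 and the ω-hydroxylase gene Cyp4a12a 0.42 ± 0.20, both with overlapping groups. Cyp4a14, among the most PPARα-responsive genes of mouse liver, read 11207, 16125 and 8428 against 13146, 26516 and 8194 (0.30 ± 0.37), and its highest array was the second Nfkbiz array, on which Acot1 and Pdk4 were lowest within the group. The fasting hormone gene Fgf21 read 824, 318 and 218 against 489, 370 and 740.2 (0.41 ± 0.43). Cpt1a, which controls entry of fatty acids into mitochondria, had a difference of -0.06 ± 0.15, and its other probe sets gave -0.22 and 0.20. The limma adjusted p-values of these 5 genes ran from 0.424 for Ehhadh to 0.901 for Cpt1a.

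On the receptor side of the pathway most differences were negative. Among 17 receptors, partners and coregulators measured, 2 fell, none rose and 15 had a negative difference, with a median of -0.20. Of all genes 0.158% fell and 0.0676% rose past the threshold, and 47.8% had a positive difference. Lpin1, a phosphatidate phosphatase that is also known as a coactivator of PPARα, read 3146, 6792 and 4250 in the luciferase and 857, 610 and 894 in the Nfkbiz livers (-2.53 ± 0.26, limma adjusted p = 0.0035). Ppargc1a, the gene of a coactivator of PPARα in fasting and mitochondrial biogenesis, read 723, 994 and 678 against 405, 280 and 327 (-1.24 ± 0.20, limma adjusted p = 0.0449). The call of Ppargc1a was lost without any single array.

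Ppara itself read 2549, 3293 and 3121 against 2639, 1942 and 2320 (-0.38 ± 0.15, limma adjusted p = 0.363), and all 3 of its probe sets had negative differences between -0.43 and -0.38. Its partner Rxra read 3487, 3784 and 4528 against 3309, 2414 and 3244 (-0.40 ± 0.16, limma adjusted p = 0.353), with no overlap. The groups did overlap on a dimmer Rxra probe set, 1425762_a_at (-0.26 ± 0.18). The coactivator gene Ncoa1 had a difference of -0.48 ± 0.18 with no overlap. The 1 gene of the list separated upward was Rxrg, a dim RXR gene, at 113, 84.0 and 144 against 226, 320.04 and 183 (1.09 ± 0.30, limma adjusted p = 0.196).

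Thioesterases outside the 8 genes had differences in both directions. Of 8 measured, none passed, 4 were positive and 4 negative, and the median was 0.06. The 2 with an unadjusted p below 0.05 were both negative and separated. Acot7, a cytosolic thioesterase best known in brain, read 1145, 1103 and 1494 against 978, 896 and 873 (-0.43 ± 0.15, limma adjusted p = 0.306), and Acot11, known as a thioesterase of brown fat, 279, 327 and 323 against 212, 126 and 245 (-0.72 ± 0.26, limma adjusted p = 0.317). The bile acid conjugating enzyme gene Baat had 0.25 ± 0.15, and the peroxisomal Acot8 0.16 ± 0.18.

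Of 12 acyl-CoA synthetase genes, which catalyse the reverse step of activating fatty acids, none passed limma's test and none had an unadjusted p below 0.05. Their median was -0.01, and the values with the smallest p were Acsm5 at -0.24 ± 0.12, Slc27a4 at -0.40 ± 0.20, Acsl4 at 0.26 ± 0.16 and Acsl3 at -0.14 ± 0.17. Of 13 genes of coenzyme A synthesis and turnover, none passed and 2 had an unadjusted p below 0.05, both negative (median -0.03). Pank3, a kinase at the first step of coenzyme A synthesis, read 3195, 3295 and 3444 in the luciferase and 2348, 2192 and 2106 in the Nfkbiz livers (-0.58 ± 0.12, limma adjusted p = 0.105), and its other probe set gave 0.09. The peroxisomal coenzyme A diphosphatase gene Nudt19 had -0.27 ± 0.12, but its other probe set, 1432332_a_at, gave 0.003 ± 0.18. Ppcdc and Enpp3 had -0.29 ± 0.18 and 0.32 ± 0.23. Vnn3, a relative of Vnn1, had -0.03 ± 0.12.

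Around Pdk4, 13 genes of the pyruvate dehydrogenase complex, its kinases and phosphatases and pyruvate import were measured. None passed limma's test, 2 had an unadjusted p below 0.05, both negative, and the median was 0.03. The phosphatase gene Pdp2 had a difference of -0.47 ± 0.18, its regulatory partner Pdpr -0.37 ± 0.16, the kinase gene Pdk2 -0.40 ± 0.18 and the subunit gene Pdha1 -0.20 ± 0.11. The other Pdha1 probe set, 1449137_at, gave 0.03 ± 0.20. Pdk1 was at 0.01 ± 0.16, and Pdk3 read 176, 89.8 and 4.77 against 101, 95.6 and 86.3, where 1 luciferase array near the bottom of the scale sets the difference.

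Around Creb3l3, 15 genes of the CREB3 family, its activating proteases and reported CREBH targets were measured, and none passed limma's test. With an unadjusted p below 0.05 there were 3, 2 negative and 1 positive, and the median was -0.01. Pck1, the gluconeogenic enzyme gene, had a difference of -0.47 ± 0.15, with its other probe sets at -0.53 (1439617_s_at) and, at intensities between 57.5 and 155, 0.54 (1455209_at). Creb3l2 had -0.80 ± 0.27 and the serum amyloid P gene Apcs 0.48 ± 0.15. On the brightest probe set of each, the groups of all 3 genes were separated. They overlapped on the other probe sets of Pck1 and on 1437396_at of Creb3l2 (-0.49 ± 0.28). Hamp, the hepcidin gene, had 0.22 ± 0.16. The apolipoprotein genes Apoa4 (-0.01 ± 0.11), Apoc2 (0.04 ± 0.12) and Apoa5 (0.09 ± 0.14), reported targets of CREBH, differed little between the groups.

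**Figure D4:**
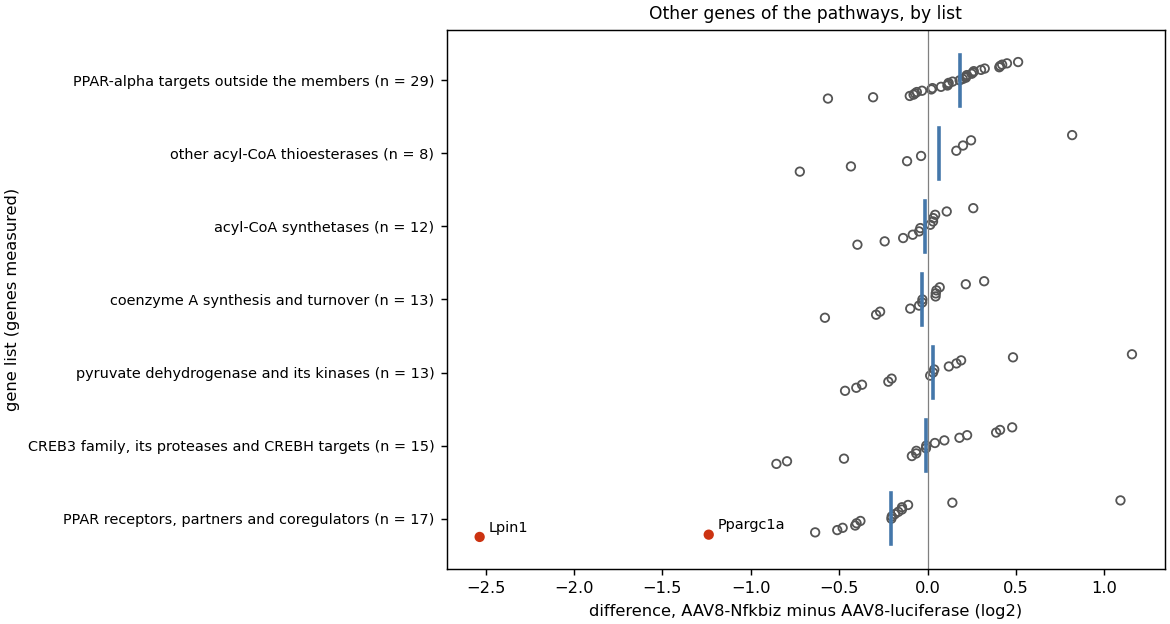
Difference between the groups (horizontal axis, log2, Nfkbiz minus luciferase) for the measured genes of each of the 7 lists (rows), with 1 circle per gene, filled red where it passed a limma adjusted p of 0.05, and a blue bar at the list's median. The 2 red circles are Lpin1 and Ppargc1a, and the medians run from -0.20 for the receptors and coregulators to 0.18 for the PPARα targets.

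Markers of other liver cells and of daily rhythm also differed between these arrays. Of 12 Kupffer cell and macrophage markers, 11 had a positive difference and none passed (10 had an unadjusted p below 0.05), and their summed intensity was between 32812 and 45939 in the luciferase and between 48724 and 63514 in the Nfkbiz group. Of 14 clock and glucocorticoid response genes, 3 fell past the threshold (Usp2, Per1 and Tsc22d3) and none rose, and their summed intensity was between 30033 and 32699 in the luciferase and between 17010 and 17789 in the Nfkbiz group. Of 9 hepatocyte markers 1 fell, Tat (-1.17 ± 0.16). Of 8 T and NK cell markers 5 had a positive and 3 a negative difference. The 1 that rose past the threshold was the granzyme gene Gzma (1.77 ± 0.28, limma adjusted p = 0.0427). Their summed intensity was between 1335 and 1596 in the luciferase and between 1807 and 3308 in the Nfkbiz group. The brightest gene in that sum, Ccl5, read 604, 722 and 703 against 1707, 919 and 770. Of 8 hepatic stellate cell markers none passed, 7 had a negative difference (median -0.54) and 3 an unadjusted p below 0.05, with sums between 22200 and 41212 and between 22386 and 29965. Of 3 neutrophil markers none passed. S100a8 and S100a9 had differences of 0.85 ± 0.36 and 0.84 ± 0.35, and the remaining marker went the other way at -0.48. None of the 4 B cell, 8 sinusoidal endothelial and 3 cholangiocyte markers passed, with medians of 0.44, 0.25 and -0.64. In bulk liver, fewer cells of a type and less RNA per cell cannot be told apart. The part of these differences in the values of the thioesterases and PPARα targets was not tested.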

How the data were processed

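The table deposited by the authors holds linear signal intensities, 1 array per liver sample, made with MAS5 per the submitters' processing notes (version not stated). Per the labels' protocols, 100 ng of total RNA went into each labelling. Precision is limited by the number of arrays. Array medians were between 78.2 and 95.2. Whether the 6 arrays stand for separate animals is not stated, so the p-values cover only the spread between arrays, which may be technical.

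The log2 intensities, without a pseudocount, were fitted with limma 3.58.1 (lmFit, eBayes with an intensity trend, R 4.3.3), Nfkbiz minus luciferase, two-sided, with Benjamini-Hochberg adjustment over 27022 probe sets, or over 13312 genes with 1 probe set each, the brightest. The dimmest 40% of probe sets were left out. GEO's platform annotation gave 1 symbol to 34945 probe sets, several to 932 and none to 9160. The procedure was tested on simulated data.

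The members and lists were chosen with earlier results of these data known. Genes named are the members, Nfkbiz, the genes of each pathway list past the threshold, up to 4 per list with the smallest p, a fixed set of PPARα pathway genes and thioesterases (some of which are not reported here), and the 5 genes most like the members. Separated list members, Vnn3, Pdk1, Pdk3, the apolipoprotein genes, marker genes past the threshold and the markers Ass1, Ccl5, S100a8 and S100a9 were picked once their values were known. The alternatives tried were the normalization, the filter, a pseudocount, the variance prior, array weights, a replicate block, the probe set that stands for a gene, and each array left out. Plots used matplotlib 3.10.9 under Python 3.11.15.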

Additional observations from a re-analysis of the deposited data

How the results depend on the processing

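With 19 probe sets past the threshold, the count was 46 with the dimmest 60% left out, 35 with log2(intensity + 32), 77 with array weights, 0 without the intensity trend and between 8 and 33 with 1 array left out. With 30 genes past it, the count was 62 with array weights, 0 without the intensity trend (1350 genes at an unadjusted p below 0.05), 13 with the mean of a gene's probe sets, 10 with the most variable one and between 9 and 21 with 1 array left out. The 2 listed genes became 1, Lpin1, after quantile or cyclic loess normalization, without the filter, with the replicate block, with the mean or the most variable probe set and with any 1 array left out (1 to 1), and 0 without the intensity trend. No member probe set passed under any of these alternatives. Whether arrays with the same replicate number share more than that number is not stated. Correlations of same-numbered deviations were -0.06, 0.07 and -0.03, and those of differently numbered ones ran from -0.12 to 0.15. The replicate block gave 28 probe sets and 27 genes. Differences of Acot1 ran from 0.81 to 1.50, of Acot3 from 0.73 to 1.44 and of Pdk4 from 0.53 to 0.94 with 1 array left out. Those of 1422077_at (Acot4), 1419395_at (Acot12), 1447845_s_at (Vnn1) and 1424688_at (Creb3l3) changed sign under 1, 1, 2 and 3 of 15 alternatives.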
